A study of Mus musculus with 20 samples.

Results

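The exit of mouse embryonic stem cells from the naive state was followed as the difference between day 3 and day 0 of a differentiation time course. It rests on 6 of the 20 RNA sequencing libraries of the series, those of days 0 and 3 in the 3 cultures of the time course, and each day 3 library was compared with the day 0 library of its own culture. The study as a whole asked what Braveheart, a long noncoding RNA, does on the way from stem cell to heart muscle. All 3 cultures were of the embryonic stem cell line E14 (strain 129/Ola, age given as embryonic), infected with a lentivirus carrying a short hairpin RNA in the pLKO.1 vector and selected with puromycin. The scrambled culture carried a control hairpin, and the cultures called hairpin A and hairpin B each carried a different hairpin against Braveheart, so every library compared here is from virus-infected, drug-selected cells. Day 0 is the stem cell culture before differentiation and day 3 the same culture 3 days later. For each sample the labels set out 2 protocols, one through embryoid bodies without leukaemia inhibitory factor (LIF), started from stem cells pre-plated to take away feeder cells, and one a feeder-free directed differentiation to cardiomyocytes. The sources used here do not say which of them gave these libraries. There was 1 library per culture and day. The p-values rest on the spread between these 3 cultures of 1 cell line, moderated by the spread over all loci. Of the 3 cultures, 2 carry hairpins against the same RNA.

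Mouse stem cells kept with LIF resemble the naive epiblast of the embryo just before implantation. Transcription factors such as Nanog, Esrrb, Klf4 and Tfcp2l1 hold one another's genes active in this state, and LIF feeds the network through the receptor pair Lifr and Il6st and the signal transducer Stat3. When LIF is taken away and signalling by fibroblast growth factor (FGF) takes over, cells pass through a formative state like that of the epiblast after implantation, in which Pou5f1 (Oct4) stays on, Otx2 and Pou3f1 (Oct6) become active, and the DNA methyltransferases Dnmt3a and Dnmt3b restore methylation.

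Levels are in FPKM, fragment counts scaled to the length of the transcript and the size of the library. Low values of the tables implied between 7.84 M and 10.05 M reads per library (M for mega), at which 3 reads on a transcript of 1 kb read 0.298 to 0.383 FPKM. That floor covers counting error only. The libraries of 1 day were alike, with 1 exception. On log2(FPKM + 1) over the 12852 loci tested, the day 0 libraries of the scrambled and hairpin A cultures correlated at r = 0.990 and the 3 day 3 libraries at 0.986 to 0.993, whereas hairpin B at day 0 gave only 0.973 and 0.974 with the other libraries of that day. It also stood closer to the day 3 libraries (0.954 to 0.958) than the scrambled day 0 library did (0.941 to 0.948), while hairpin A at day 0 gave 0.943 to 0.955 with them. Counts over gene lists are therefore given with and without the hairpin B culture, and without another culture where that moves a count of 4 or more by over 1.5 times. The level of Braveheart itself was not analysed here.

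The labelled cell type was borne out by its markers at day 0. All 8 naive markers (Zfp42, Klf2, Klf4, Esrrb, Tbx3, Nr0b1, Tcl1 and Prdm14) were at 7.64 FPKM or more in all 3 day 0 libraries. Some markers of blood and heart muscle were near 0 at both days. The embryonic globins Hbb-bh1 and Hbb-y were listed at 0 in all 6 libraries, and Nkx2-5 and Tnnt2 did not exceed 0.304 and 0.257 FPKM. Actc1, another heart muscle marker, read 0.380 to 1.25 FPKM at day 0 and 3.22 to 8.84 FPKM at day 3. The 23 heart muscle genes listed summed to 22.1 to 22.8 FPKM at day 0 and 19.7 to 27.0 FPKM at day 3. The 21 blood and endothelial genes summed to 53.8 to 67.7 FPKM at day 0 and 52.8 to 63.3 FPKM at day 3, and 10 of them reached 1 FPKM in some library. The 25 fibroblast and matrix genes summed to 369 to 536 FPKM at day 0 and 191 to 292 FPKM at day 3, with 22 of them above 1 FPKM in some library, and are described with their own result further on.

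The 8 promoter windows below are shown because each holds, in a group of genes that moved, letters compared in the results further on. Each runs from 250 bases before to 50 bases after a transcription start and comes from RefSeq on build GRCm38.p6, matched by gene symbol, and each is written 5′ to 3′ in the direction of the gene. The first pair is from a naive gene that fell, Zfp42 (Rex1, chr8:43306960-43307259, minus strand), and a formative gene that rose, Pim2 (chrX:7878056-7878355, plus strand). Capitals mark the octamer ATTTGCAT, the letters bound by POU factors such as Oct4 and Oct6, on either strand.
Zfp42: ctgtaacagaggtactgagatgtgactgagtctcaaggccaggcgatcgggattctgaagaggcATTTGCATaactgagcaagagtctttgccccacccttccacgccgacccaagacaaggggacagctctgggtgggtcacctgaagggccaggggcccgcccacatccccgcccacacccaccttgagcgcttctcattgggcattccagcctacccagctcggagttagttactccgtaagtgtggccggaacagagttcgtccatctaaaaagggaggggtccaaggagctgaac
Pim2: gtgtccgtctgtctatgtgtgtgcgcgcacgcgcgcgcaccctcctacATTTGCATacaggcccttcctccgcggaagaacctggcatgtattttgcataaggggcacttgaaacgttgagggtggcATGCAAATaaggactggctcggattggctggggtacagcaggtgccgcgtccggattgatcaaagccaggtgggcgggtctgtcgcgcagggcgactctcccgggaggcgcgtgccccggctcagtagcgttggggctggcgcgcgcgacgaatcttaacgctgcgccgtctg
Next come a pair of interferon-stimulated genes that fell, Isg15 (chr4:156200769-156201068, minus strand) and Ifit3 (chr19:34583279-34583578, plus strand), with the interferon-stimulated response element, GAAA and GAAA with any 2 bases between, in capitals on either strand. Matches that overlap run together in Isg15.
Isg15: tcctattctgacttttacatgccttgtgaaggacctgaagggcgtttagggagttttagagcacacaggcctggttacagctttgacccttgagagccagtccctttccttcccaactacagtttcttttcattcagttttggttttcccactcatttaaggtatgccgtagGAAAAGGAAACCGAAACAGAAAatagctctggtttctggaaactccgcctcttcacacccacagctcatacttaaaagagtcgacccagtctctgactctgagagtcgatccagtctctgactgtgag
Ifit3: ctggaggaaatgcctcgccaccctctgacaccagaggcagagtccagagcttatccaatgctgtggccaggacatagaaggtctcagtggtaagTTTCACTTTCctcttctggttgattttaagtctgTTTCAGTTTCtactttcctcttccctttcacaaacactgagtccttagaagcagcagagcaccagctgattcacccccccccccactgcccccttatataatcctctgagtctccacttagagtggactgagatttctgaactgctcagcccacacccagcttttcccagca
The third pair is from germline genes that fell, Hormad1 (chr3:95559427-95559726, plus strand) and Slc25a31 (chr3:40708621-40708920, plus strand), with the E-box CACGTG in capitals.
Hormad1: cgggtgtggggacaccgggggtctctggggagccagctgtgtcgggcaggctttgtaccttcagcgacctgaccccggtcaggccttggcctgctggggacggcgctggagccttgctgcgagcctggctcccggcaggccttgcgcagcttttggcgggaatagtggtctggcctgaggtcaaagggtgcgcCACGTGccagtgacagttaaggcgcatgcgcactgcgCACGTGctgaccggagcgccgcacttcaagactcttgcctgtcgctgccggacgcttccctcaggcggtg
Slc25a31: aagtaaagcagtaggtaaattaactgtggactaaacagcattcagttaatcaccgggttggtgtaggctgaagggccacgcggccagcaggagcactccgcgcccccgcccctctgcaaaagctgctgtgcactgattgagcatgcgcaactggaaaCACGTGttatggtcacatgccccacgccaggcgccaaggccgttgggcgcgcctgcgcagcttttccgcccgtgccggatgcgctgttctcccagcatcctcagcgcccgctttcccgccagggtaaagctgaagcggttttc
The last pair is from the Zscan4 family, whose members fell together, with the TATA box letters TATAAA in capitals (Zscan4c, chr7:11005495-11005794, plus strand, and Zscan4f, chr7:11397665-11397964, plus strand).
Zscan4c: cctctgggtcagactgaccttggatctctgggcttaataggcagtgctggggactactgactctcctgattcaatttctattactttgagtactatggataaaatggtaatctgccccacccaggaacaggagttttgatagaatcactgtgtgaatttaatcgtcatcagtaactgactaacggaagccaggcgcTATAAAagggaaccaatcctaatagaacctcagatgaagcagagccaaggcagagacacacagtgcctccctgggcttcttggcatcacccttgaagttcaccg
Zscan4f: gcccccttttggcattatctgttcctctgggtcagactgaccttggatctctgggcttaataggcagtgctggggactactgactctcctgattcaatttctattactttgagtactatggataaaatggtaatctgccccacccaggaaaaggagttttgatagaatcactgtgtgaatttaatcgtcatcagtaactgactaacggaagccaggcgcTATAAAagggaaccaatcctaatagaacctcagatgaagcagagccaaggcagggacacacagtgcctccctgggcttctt
Aligned on the TATA letters, the Zscan4c and Zscan4f windows were identical at 275 of 277 bases, so these genes are near-copies and their FPKM values cannot be taken as independent.

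Between day 0 and day 3, 2101 of the 12852 loci tested were higher (16.3%) and 1862 were lower (14.5%), by limma on log2(FPKM + 1) with culture as a block and a Benjamini-Hochberg adjusted p under 0.05. A change of at least 2-fold on that scale was seen for 317 loci that rose (2.47%) and 495 that fell (3.85%). The median change over all loci was 0.02. The levels of the 2 days did not overlap for 5529 loci (43%). Errors of log2 changes are moderated SE from this fit, and every adjusted p is from it unless another fit is named. Moderation draws the spread of each locus over the 3 culture pairs toward a trend over all loci. The prior from all loci had 5.27 degrees of freedom, against 2 residual ones, so an SE can be smaller or larger than the spread of the 3 pairs alone. Of the 3963 calls, 3945 had the same sign in all 3 cultures. The median level of the 317 risers went from 4.11 to 12.2 FPKM, and that of the 495 fallers from 7.93 to 1.69 FPKM. In the scatter of day 3 against day 0 levels the fallers reach further from the diagonal than the risers.

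**Figure D1:**
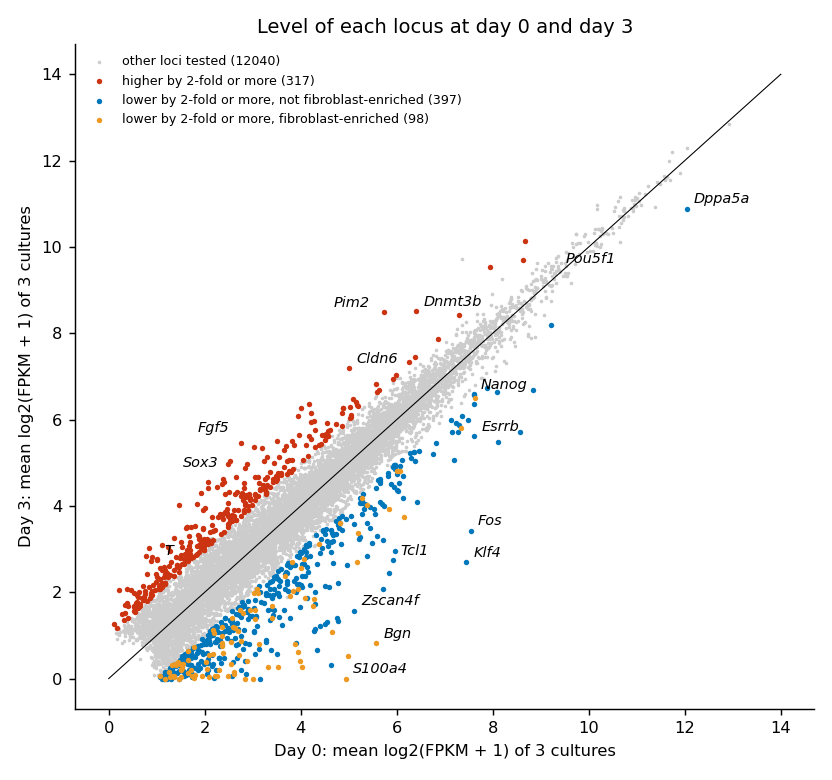
Mean log2(FPKM + 1) of each of the 12852 loci tested over the 3 cultures at day 0 (x axis) and day 3 (y axis); the line marks equal levels. Red points are the 317 loci higher by 2-fold or more, blue and orange points the 495 lower by 2-fold or more, of which the 98 in orange are enriched in embryonic fibroblasts, and Klf4, Bgn and S100a4 lie furthest below the line.

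The hairpin B culture widened the spread in this comparison. Without it the calls rose to 3431 higher (27.1% of 12643) and 2938 lower (23.2%), and 3838 of the 3963 original calls were among them. Without hairpin A there were 987 higher and 1044 lower of 12593, and without the scrambled culture 1043 and 1117 of 12599. Counts over the gene lists below are to be read beside these shifts over all loci. Among the 317 risers of 2-fold or more, the day 0 level was highest in hairpin B for 221 (69.7%), against 39.7% of all loci tested. Sfn, encoding the cell cycle adaptor stratifin, shows the pattern, with 7.33, 7.14 and 58.8 FPKM at day 0 and 86.4, 38.6 and 132 FPKM at day 3 (the order of the cultures being scrambled, hairpin A, hairpin B, here and below). At day 3 the lowest of the 3 cultures was hairpin A for 208 of these 317 loci (65.6%), against 34.1% of all loci tested.

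By the size of the change, the 12 leading risers were Pim2, Fgf5, Sema6a, Sox3, Cnn1, Ltb, Jph4, Enpp2, Nes, Sfn, Epha1 and Krt19, with log2 changes from 2.75 down to 2.20. They include a kinase (Pim2), a growth factor (Fgf5), an axon guidance protein (Sema6a), a calponin of smooth muscle (Cnn1), a cytokine (Ltb), the phospholipase autotaxin (Enpp2) and 2 intermediate filament genes (Nes and Krt19). The 12 leading fallers were S100a4, Klf4, Bgn, Emp1, Ifi27l1, Fos, Lox, Mgp, Fosb, Fbln2, H19 and Zscan4f, with log2 changes, leaving out S100a4, which was listed at 0 at day 3, from -4.76 to -3.54. Only Klf4 among these 12 is a gene of the naive network, and 6 of the 12 (S100a4, Bgn, Emp1, Lox, Fbln2 and H19) met the definition of fibroblast enrichment given further on. In Ifi27l1 and Fbln2, 1 and 2 of the 6 values were marked as low data by the authors.

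The naive network was lower at day 3 almost throughout. Of 24 naive pluripotency genes, 22 fell, none rose, and the median log2 change was -1.49. Klf4, a Krüppel-like factor that acts downstream of LIF (chromosome 4, 55540008 to 55545347 in mm9, as are all positions from the deposited table below), stood at 125, 152 and 279 FPKM at day 0 and 5.93, 6.36 and 4.28 FPKM at day 3. The days are far apart in every culture, and the log2 change was -4.76 ± 0.27, adjusted p = 0.000109. Its mean level was 33.5 times lower at day 3.

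Tcl1, a coactivator of the kinase Akt, stood at 55.3, 61.2 and 63.7 FPKM at day 0 and 7.77, 4.57 and 5.18 FPKM at day 3, a log2 change of -3.18 ± 0.17, adjusted p = 8.11e-05. Tbx3, a T-box factor that sustains Nanog, read 24.5, 25.2 and 29.7 FPKM at day 0 and 3.34, 3.82 and 3.68 FPKM at day 3 (-2.57 ± 0.12, adjusted p = 5.70e-05). The 3 cultures lay close together for both genes on both days. Prdm14, which holds FGF signalling and DNA methylation down in naive cells, was low from the start at 11.2, 10.8 and 7.64 FPKM and ended at 2.29, 1.99 and 1.141 FPKM (-1.96 ± 0.12, adjusted p = 0.000165).

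The nuclear receptor Esrrb (chromosome 12, 87702066 to 87862577) read 167, 207 and 216 FPKM at day 0 and 52.2, 49.8 and 42.2 FPKM at day 3, and no day 3 library came near a day 0 library. Its log2 change was -2.01 ± 0.13, adjusted p = 0.000193. Zfp42 (Rex1), the usual reporter gene of the naive state, read 443, 496 and 425 FPKM at day 0 and 119, 94.6 and 92.4 FPKM at day 3 (-2.15 ± 0.11, adjusted p = 7.80e-05). Even so, the levels of Zfp42 and Esrrb left at day 3 were above the day 0 levels of Tbx3 and Prdm14. Nanog, the homeobox factor at the core of the network, kept more of its level than these, with 201, 205 and 175 FPKM at day 0 and 108, 82.4 and 96.1 FPKM at day 3 and a log2 change of -1.02 ± 0.11, adjusted p = 0.00113. The smallest called changes were those of Fgf4, the main FGF ligand of stem cells (-0.64), Pecam1 (-0.68) and Mael (-0.73).

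Several naive genes were high in the hairpin B day 0 library. Klf2 read 202, 172 and 564 FPKM at day 0 and 102, 115 and 79.6 FPKM at day 3, with a log2 change of -1.45 ± 0.37, adjusted p = 0.0242. By culture, that change was -0.97 in scrambled, -0.58 in hairpin A and -2.81 in hairpin B. Klf5 and Nr0b1 (Dax1) showed the same order at day 0, with 49.5, 38.2 and 132 FPKM and 74.9, 67.6 and 119 FPKM. In all, 12 of the 24 were highest at day 0 in hairpin B, which was so for 39.7% of all loci tested. Without hairpin B, 23 of the 24 were lower and the median was -1.34. With all 12 libraries of the time course in 1 fit, 9 of the 24 were lower. Nlrp14 and Dppa3 (Stella) did not pass. Dppa3 read 17.1, 10.1 and 21.5 FPKM at day 0 and 17.1, 9.13 and 8.63 FPKM at day 3, and only in hairpin B did the days differ by more than 1 FPKM (-0.45 ± 0.23, adjusted p = 0.173).

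The factors shared by naive and formative cells split. Among 19 general pluripotency genes 6 rose, 6 fell and the median was -0.01. Leaving out hairpin B gave 7 higher and 6 lower, leaving out hairpin A 4 and 5, and leaving out the scrambled culture 3 and 5. With all 12 libraries in the fit 1 was higher and none lower. Pou5f1 (Oct4) read 604, 689 and 682 FPKM at day 0 and 788, 689 and 705 FPKM at day 3, and the log2 change was 0.14 ± 0.10, adjusted p = 0.312; no change was detected. Sox2, its partner, fell from 429, 432 and 426 to 279, 329.8 and 249.8 FPKM (-0.59 ± 0.10, adjusted p = 0.00530). The 3 day 3 values lay below all day 0 values. Dppa5a, an RNA-binding protein and the most abundant of the list, fell from 4117, 5244 and 3470.2 to 1801, 2505 and 1498 FPKM (-1.16 ± 0.08, adjusted p = 0.000208), and Tdgf1 (Cripto), the Nodal coreceptor, also fell (-0.75 ± 0.13).

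The risers of this list were RNA-binding proteins and nuclear factors. Lin28a, which blocks maturation of let-7 microRNAs, went from 169.9, 135 and 192 to 308, 259 and 310.5 FPKM (0.83 ± 0.09, adjusted p = 0.00109), and its paralogue Lin28b rose by a like amount (0.89 ± 0.13). Foxd3, a forkhead factor of the epiblast, read 7.86, 9.27 and 15.2 FPKM at day 0 and 27.6, 25.8 and 21.3 FPKM at day 3 (1.18 ± 0.22, adjusted p = 0.00783). Utf1, a chromatin protein of the early epiblast, rose as well (0.69 ± 0.16, adjusted p = 0.0184), with a day 0 value in hairpin B of 331 FPKM between the other day 0 values and those of day 3. Zscan10 and L1td1 were the other risers (0.55 and 0.29).

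**Figure D2:**
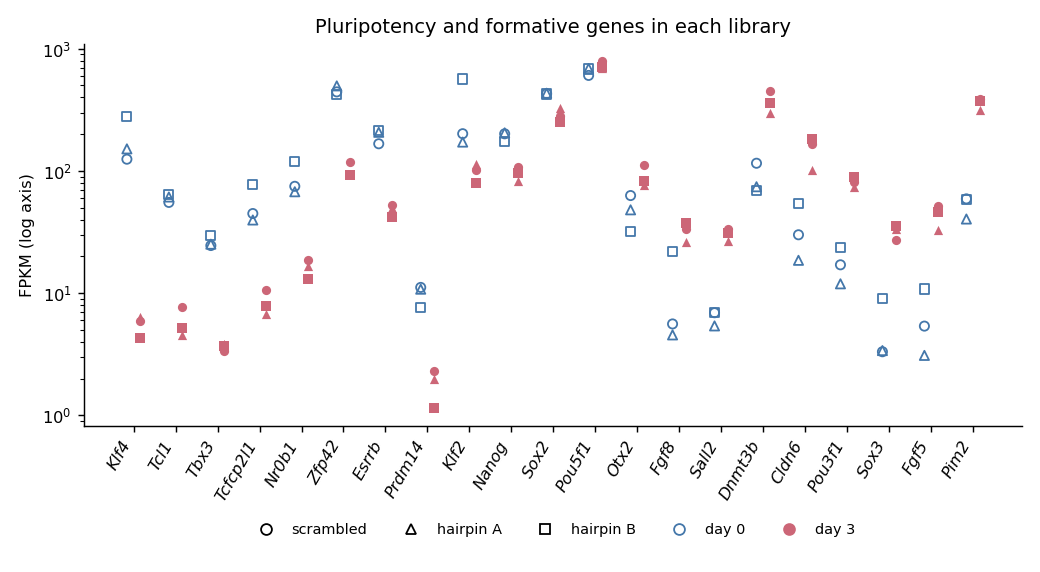
FPKM on a log axis of 21 naive, general pluripotency and formative genes in each of the 6 libraries, with open blue symbols for day 0, filled red symbols for day 3 and the symbol shape giving the culture. Klf4 falls furthest, Pou5f1 overlaps within the spread of the cultures, and Fgf5, Sox3 and Pim2 rise in all 3 cultures, with hairpin B the highest day 0 value for Klf4, Klf2, Fgf8 and Sox3.

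Formative genes rose. Of 35 formative and primed epiblast genes tested, 24 were higher and 3 lower, with a median log2 change of 0.70, and 13 of the risers passed 2-fold. Pim2, a survival kinase (chromosome X, 7455431 to 7460558), had the largest rise of the named loci, with 59.1, 40.4 and 58.8 FPKM at day 0 and 384, 317 and 371 FPKM at day 3, a log2 change of 2.75 ± 0.10, adjusted p = 2.42e-05. The 6 values fall into tight groups of 3. Fgf5, the standard marker of the epiblast after implantation (chromosome 5, 98683202 to 98706049), read 5.38, 3.10 and 10.8 FPKM at day 0 and 51.5, 32.7 and 46.4 FPKM at day 3 (2.69 ± 0.21, adjusted p = 0.000321), with the hairpin B day 0 value above the other day 0 values.

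The POU factor Pou3f1 (Oct6) went from 17.1, 11.9 and 23.8 to 81.2, 73.9 and 88.4 FPKM (2.19 ± 0.14, adjusted p = 0.000174). Sox3, a SoxB1 factor like Sox2, read 3.32, 3.39 and 9.10 FPKM at day 0 and 27.4, 33.3 and 35.2 FPKM at day 3 (2.51 ± 0.21, adjusted p = 0.000405), and hairpin B was again the highest at day 0. Otx2, which directs Oct4 to formative enhancers, was already at 62.9, 48.1 and 31.8 FPKM at day 0 and reached 112, 76.6 and 82.9 FPKM (0.94 ± 0.14, adjusted p = 0.00347). Its rise was thus smaller than those of Fgf5, Pou3f1 and Sox3, and the days did not overlap. The zinc finger factor Sall2 read 6.92, 5.399 and 6.94 FPKM at day 0 and 33.3, 26.8 and 30.8 FPKM at day 3 (2.08 ± 0.11, adjusted p = 7.80e-05). Wnt8a, Cldn6, Car14, Fgf8, Fst, Sox11 and Krt18 were the other formative risers past 2-fold on the log2 scale besides Dnmt3b.

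Members that did not follow were Crabp1 (-1.35), the kinase receptor Epha2 (-1.06) and Trp53inp1 (-0.59), which fell. Lef1, Zic5 and Enpp3, listed as primed genes, gave log2 changes of 0.06, 0.03 and 0.03 and did not pass. Without hairpin B the list had 25 higher and 4 lower with a median of 0.68, and with all 12 libraries in the fit it had 11 higher and 1 lower. In 20 of the 35 genes hairpin B was the highest day 0 library, which was so for 39.7% of all loci tested.

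The promoter windows of the risers and fallers were compared for 8 short motifs, searched on both strands. The octamer ATTTGCAT was in 2 of the 14 windows of naive genes that fell (Zfp42 and Spp1) and in 2 of the 15 of formative genes that rose (Pim2 and Sfrp2), against 1.97% of all 27025 windows. Promoters of genes that fell by 2-fold or more without fibroblast enrichment had fewer CpG dinucleotides (median 12.0 per window, 245 windows) than those of genes that rose (18.5, 208 windows) or of all loci tested (21.0, 8995 windows). They held TATAAA in 20.4%, against 11.5% of the risers and 8.59% of all loci tested, and the ETS letters CCGGAAGT in 0.816%, against 3.85% and 8.92%. CCACCC was in 51.0% of both the fallers and the risers and in 42.1% of all loci tested. CCAAT stood at 46.9%, 37.0% and 43.6% in the same order (fallers, risers, all loci tested) and TGACGTCA at 2.04%, 3.85% and 3.60%. These shares describe letters within 300 bases and carry no test.

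Genes of the LIF pathway fell with the naive network. Of 20 tested, 11 were lower, none was higher, and the median was -0.67. The receptor subunit Lifr read 15.8, 18.1 and 13.6 FPKM at day 0 and 5.23, 5.90 and 4.85 FPKM at day 3 (-1.40 ± 0.11, adjusted p = 0.000368), and its partner Il6st (gp130) went from 42.8, 39.0 and 32.7 to 15.8, 15.7 and 17.3 FPKM (-1.18 ± 0.13, adjusted p = 0.000979). For neither receptor did the days overlap. Stat3, the transducer, read 18.8, 20.4 and 56.9 FPKM at day 0 and 7.83, 12.6 and 9.43 FPKM at day 3 (-1.43 ± 0.30, adjusted p = 0.0126).

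Several targets of Stat3 differed between the cultures at day 0. Socs3, the feedback inhibitor that Stat3 induces, read 19.3, 19.7 and 169 FPKM at day 0 and 5.37, 6.53 and 6.53 FPKM at day 3, a log2 change of -2.55 ± 0.52, adjusted p = 0.0114. The hairpin B day 0 value was far above the other 2, and the day 3 values were alike. Bcl3 and Junb, which Stat3 also induces, were high in the same library (3.49, 3.81 and 14.7 and 45.4, 33.8 and 238 FPKM at day 0) and did not pass. The kinases Jak1 (-0.23) and Jak2 (-0.07) did not pass either. Without hairpin B the list had 12 lower and 3 higher, with a median of -0.47.

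Immediate early genes, which growth factors and stress switch on within minutes, moved in part. Of 21 tested, 6 fell and 2 rose. Fos read 164, 104 and 372 FPKM at day 0 and 16.7, 8.70 and 6.27 FPKM at day 3 (-4.11 ± 0.42, adjusted p = 0.000859), and Egr1, a direct target of the ERK kinases, read 238, 160.5 and 556 FPKM at day 0 and 51.5, 38.1 and 41.8 FPKM at day 3 (-2.64 ± 0.29, adjusted p = 0.00109). Fosb and Egr2 fell too (-3.63 and -2.32). When hairpin B was left out, 6 of 20 were lower and 4 higher, and when hairpin A was, 9 of 21 were lower and 1 higher. In 20 of the 21 genes the hairpin B library was the highest at day 0, against 39.7% of all loci tested. The median change was -1.05 in hairpin B, -0.19 in the scrambled culture and 0.02 in hairpin A. Myc, read as a Wnt and growth target, rose (8.41, 8.59 and 13.4 FPKM at day 0 and 21.3, 19.02 and 20.8 FPKM at day 3, 0.97 ± 0.15, adjusted p = 0.00345), as did Jund (0.81).

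Ligands of the FGF family moved in opposite directions. In the pathway list of 29 genes 9 rose and 3 fell, against 11 and 6 without hairpin B. Over all loci tested 16.3% were higher and 14.5% lower. Fgf4 fell from 67.3, 82.6 and 38.9 to 40.4, 43.6 and 31.9 FPKM (-0.64 ± 0.13, adjusted p = 0.0126), while Fgf5 (above), Fgf8 and Fgf15 rose. Fgf8, a ligand of the primitive streak, read 5.60, 4.56 and 22.01 FPKM at day 0 and 33.5, 26.3 and 37.6 FPKM at day 3 (1.81 ± 0.30, adjusted p = 0.00484), and its hairpin B value at day 0 was close to the day 3 value of hairpin A. Fgf15 went from 12.0, 9.75 and 9.97 to 25.1, 17.9 and 21.2 FPKM (0.94 ± 0.11, adjusted p = 0.00131). At day 3 the summed level of Fgf5 and Fgf8 was above that of Fgf4 in each culture. The receptor Fgfr1 rose (0.52) and Fgfr2 did not pass (0.07). Feedback inhibitors of ERK differed, since Spry1 (0.77), Dusp6 (0.56) and Dusp4 (0.41) rose, Spry4 fell (-0.79) and Spry2 did not pass (-0.24).

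The Nodal pathway, which keeps the epiblast pluripotent and later patterns the streak, moved in both directions. Of 26 genes 6 rose and 8 fell, beside 16.3% higher and 14.5% lower over all loci tested. Without hairpin B 6 of 25 were higher and 9 lower. Nodal itself read 42.5, 42.1 and 49.8 FPKM at day 0 and 69.5, 67.7 and 69.0 FPKM at day 3 (0.61 ± 0.10, adjusted p = 0.00456), with no overlap of the days. Foxh1, the DNA-binding partner of the Smad complex, went from 30.2, 32.6 and 41.9 to 83.9, 76.7 and 92.8 FPKM (1.26 ± 0.10, adjusted p = 0.000392), and Gdf1, a related ligand, rose from low levels (0.969, 1.55 and 6.20 to 9.08, 12.7 and 9.70 FPKM). Lefty2, a secreted inhibitor and target of Nodal, fell to 98.6, 145 and 81.0 FPKM from 234, 216 and 253 (-1.15 ± 0.18, adjusted p = 0.00439), and Lefty1 fell less (-0.48). The receptor genes Acvr1b, Acvr2a, Acvr2b and Tgfbr1 and the transducers Smad2, Smad3 and Smad4 did not pass.

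Bone morphogenetic protein (BMP) genes gave 1 of 21 higher and 6 lower, with a median of -0.00, and 3 of 20 higher and 7 lower without hairpin B. The ligand Bmp4 read 7.17, 4.65 and 7.24 FPKM at day 0 and 4.06, 2.66 and 2.28 FPKM at day 3 (-0.88 ± 0.17, adjusted p = 0.00864). Its target Id3, which blocks neural differentiation in stem cells, read 73.4, 38.9 and 99.3 FPKM at day 0 and 40.1, 19.03 and 25.4 FPKM at day 3 (-1.26 ± 0.20, adjusted p = 0.00427). Id1 and Id2 did not pass (0.38 and 0.10). Id3, Grem1 and Nbl1 are fibroblast-enriched by the survey described further on, and without fibroblast-enriched loci 3 of 17 BMP genes were lower.

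Wnt genes leaned upwards, with 16 of 36 higher and 5 lower. Among ligands, Wnt8a rose most (3.66, 1.98 and 8.78 FPKM at day 0 and 23.7, 18.4 and 23.6 FPKM at day 3, 2.15 ± 0.25, adjusted p = 0.00120), and Wnt4, Wnt5b and Wnt3 rose from levels of 0.276 to 3.65 FPKM at day 0. Among receptors, Fzd2 (1.21), Fzd8 (0.91) and Fzd7 (0.74) rose and Fzd5 fell (-1.07). Tcf7l1 (Tcf3), the repressor that limits the naive network, rose (20.5, 18.9 and 34.4 FPKM at day 0 and 42.8, 38.6 and 41.0 FPKM at day 3, 0.76 ± 0.16, adjusted p = 0.0139). The general Wnt target Axin2 passed narrowly (0.49 ± 0.15, adjusted p = 0.0500). Sp5, another target, did not pass (0.30 ± 0.50, adjusted p = 0.673), and its hairpin B value of 15.4 FPKM at day 0 was the highest of all 6. The secreted inhibitors Notum and Sfrp1 fell (-1.89 and -1.73). Without the replicate block the list had 9 higher and 5 lower. Leaving out hairpin A gave the same counts, and leaving out hairpin B gave 19 of 35 higher and 6 lower.

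The machinery of DNA methylation changed enzyme by enzyme. Of 21 genes 6 rose and 5 fell, beside 16.3% higher and 14.5% lower over all loci tested. The counts were 6 higher and 8 lower without hairpin B, 3 and 4 without hairpin A, 2 and 4 without the scrambled culture and 3 and 5 without the replicate block. Dnmt3b, the de novo methyltransferase of the epiblast (chromosome 2, 153475189 to 153513466), read 116, 74.3 and 69.0 FPKM at day 0 and 448, 297 and 358 FPKM at day 3 (2.10 ± 0.11, adjusted p = 7.80e-05). The scrambled day 3 value is marked as a failed estimate by the authors, and the other 2 cultures gave log2 changes of 1.98 (hairpin A) and 2.36 (hairpin B). Dnmt3a rose less (28.9, 29.3 and 16.9 FPKM at day 0 and 38.6, 38.1 and 31.7 FPKM at day 3, 0.55 ± 0.13, adjusted p = 0.0178), and neither Dnmt1, the maintenance enzyme, nor its cofactor Uhrf1 passed (0.06 and 0.05). On the opposite side, the 5-methylcytosine oxidases moved apart from one another. Tet2 fell from 20.4, 18.99 and 13.2 to 3.95, 2.90 and 3.68 FPKM (-2.02 ± 0.16, adjusted p = 0.000362) and Tet1 from 78.4, 88.9 and 67.8 to 34.5, 35.8 and 30.8 FPKM (-1.19 ± 0.10, adjusted p = 0.000362), whereas Tet3, the least abundant of the 3 at day 0, rose (2.15, 2.10 and 1.79 FPKM at day 0 and 3.39, 3.19 and 3.13 FPKM at day 3, 0.49 ± 0.13, adjusted p = 0.0260). Zfp57, which protects methylation at imprinted loci, fell (-1.56 ± 0.14, adjusted p = 0.000501).

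Germline genes, many of which are kept silent in somatic cells by promoter methylation, fell in part. Of 41 listed, 31 were tested, and of these 19 were lower and none higher, with a median of -0.58. A member silent at day 3 could pass the filter on low values only through its day 0 level, so these counts are no support for a fall of the list. Leaving out hairpin B gave 22 lower and 1 higher. The calls depended on the samples in the fit, with 13 lower without the replicate block and 1 lower with all 12 libraries, at the same median. Hormad1, a meiotic chromosome axis protein (chromosome 3, 95363598 to 95391593), read 25.2, 14.6 and 9.73 FPKM at day 0 and 4.96, 3.70 and 3.87 FPKM at day 3 (-1.67 ± 0.19, adjusted p = 0.00118). Dazl, an RNA-binding protein of germ cells, read 13.8, 9.34 and 7.78 FPKM at day 0 and 4.57, 3.93 and 3.64 FPKM at day 3 (-1.13 ± 0.14, adjusted p = 0.00160). Levels at day 0 were lowest in hairpin B for both. Stra8, a retinoic acid target needed for meiosis, read 14.8, 30.6 and 8.98 FPKM at day 0 and 1.31, 20.5 and 1.87 FPKM at day 3, with the smallest fall in hairpin A (-1.71 ± 0.36, adjusted p = 0.0119). Sycp3, the most abundant of the list, and Ddx4 did not pass (-0.07 and -0.38). The E-box CACGTG was in 8 of the 15 windows available for the 19 genes that fell (53.3%). These were Mael, Sycp1, Taf7l, Stk31, Mov10l1, Hormad1, Slc25a31 and Brdt. It was in 12.3% of the windows of all loci tested and 8.09% of all windows. Windows of germline genes that did not pass were not compared, so the share cannot be tied to the fall.

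Genes of the 2-cell-like state, a rare and passing state of stem cell cultures that resembles the 2-cell embryo, fell. Of the 29 members listed, 24 were found in the table and 16 passed the filter on low values, and these 16 were lower by 2-fold or more on the log2 scale, with a median of -3.16. A gene silent at day 3 could pass only through its day 0 level, so this count is no support for a fall of the list. Without hairpin B 15 passed the filter and were lower. Zscan4f (chromosome 7, 11983263 to 11987667) read 51.2, 29.4 and 25.0 FPKM at day 0 and 2.15, 1.77 and 2.02 FPKM at day 3 (-3.54 ± 0.18, adjusted p = 7.80e-05), and Zscan4c read 40.2, 22.99 and 19.98 FPKM at day 0 and 1.68, 1.32 and 1.53 FPKM at day 3 (-3.46 ± 0.18, adjusted p = 7.80e-05). The scrambled culture was highest at day 0, and the 3 cultures were alike at day 3. Tcstv1 and Tcstv3, a related pair, both fell (-3.35 and -3.24), as did Usp17l5, from 5.43, 2.46 and 2.13 FPKM to 0.174 and 0.0559 FPKM and, in hairpin B, a value listed at 0. Dux, the factor that switches the programme on, was low throughout (1.31, 1.25 and 1.18 FPKM at day 0 and 0.0499, 0.212 and 0.0571 FPKM at day 3, -1.03 ± 0.14, adjusted p = 0.00266). Summed over the 24 genes of the list in the table, the level went from between 228.3 and 424 FPKM at day 0 to between 20.4 and 25.3 FPKM at day 3. In bulk RNA a smaller share of cells in a state and less RNA per cell cannot be told apart. The near-copies of this list share reads, so these 16 are not independent values. TATAAA was in 4 of the 5 windows available for them, against 15.7% of all windows. The Zscan4c, Zscan4d and Zscan4f windows all hold these letters and were 97.2% to 99.3% identical to one another, so the windows are not independent either.

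**Figure D3:**
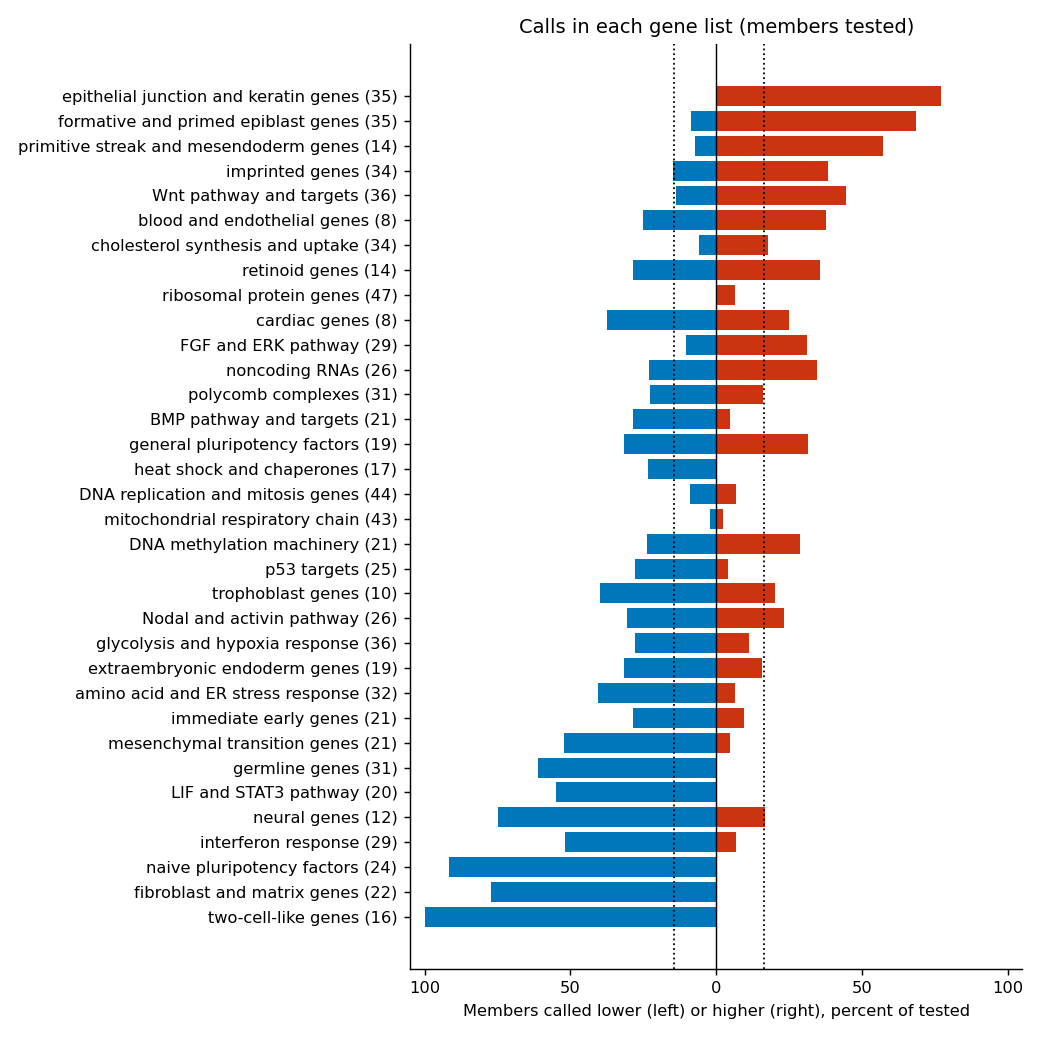
Share of the tested members of each gene list (number in brackets, lists with at least 8 tested) called lower (blue, left) or higher (red, right) at day 3, ordered by median log2 change; the dotted lines mark the shares over all loci, 14.5% lower and 16.3% higher. Epithelial and formative genes lead the risers and 2-cell-like, fibroblast and naive genes the fallers.

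Epithelial genes rose. Of 35 junction and keratin genes tested, 27 were higher and none lower, with a median of 0.73. Cldn6 and Krt18 are also counted among the formative risers above, so the counts of these lists are not separate. Cdh1 (E-cadherin), the adhesion molecule of stem cell colonies and of the epiblast (chromosome 8, 109127267 to 109194146), read 118, 89.6 and 135 FPKM at day 0 and 198, 161 and 227 FPKM at day 3 (0.78 ± 0.09, adjusted p = 0.00111). Tight junction claudins differed among themselves, and Cldn4 did not pass (0.25). Cldn6 read 30.0, 18.6 and 53.8 FPKM at day 0 and 167, 101 and 181 FPKM at day 3 (2.18 ± 0.15, adjusted p = 0.000201) and Cldn7 14.1, 8.59 and 23.7 FPKM at day 0 and 71.9, 57.7 and 70.5 FPKM at day 3 (2.14 ± 0.19, adjusted p = 0.000533). Values in hairpin A were lowest in both genes on both days. Crb3 and Prss8, a polarity protein and a membrane protease, rose (1.69 and 1.64), as did the splicing factor Esrp1 (1.47), which sets epithelial exon choice, and Grhl2 (0.87), a transcription factor of epithelia.

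Keratins were already high in hairpin B at day 0. Krt8 read 6.74, 7.42 and 57.1 FPKM at day 0 and 54.1, 29.2 and 72.3 FPKM at day 3 (1.67 ± 0.39, adjusted p = 0.0183), and its hairpin B day 0 value exceeded the day 3 values of both other cultures. Krt18, its filament partner, followed (21.5, 18.9 and 75.2 FPKM at day 0 and 86.3, 56.5 and 94.2 FPKM at day 3, 1.27 ± 0.27, adjusted p = 0.0134). Krt19 read 3.19, 1.89 and 7.84 FPKM at day 0 and 29.0, 9.95 and 30.6 FPKM at day 3 (2.20 ± 0.20, adjusted p = 0.000568). Hairpin B was highest at day 0 in 29 of the 35 epithelial genes, against 39.7% of all loci tested. Without hairpin B, 30 of 34 were higher and the median was 0.75, and with all 12 libraries in the fit 17 of 35 were higher. Krt7, Tjp1 and Dsg2 did not pass (0.18, 0.12 and 0.15).

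Mesenchymal and matrix genes fell. Of 22 fibroblast and matrix genes tested, 17 were lower, none higher, and the median was -1.79. The same number was lower without hairpin B, and 1 was higher. As above, a gene absent at day 3 could pass the filter only through day 0. Bgn, the matrix proteoglycan biglycan (chromosome X, 70728973 to 70741275), read 43.4, 50.2 and 45.9 FPKM at day 0 and 0.680, 0.878 and 0.749 FPKM at day 3 (-4.75 ± 0.11, adjusted p = 7.15e-06). Lox, which crosslinks collagen, read 13.997, 14.6 and 17.4 FPKM at day 0 and 0.230, 0.172 and 0.229 FPKM at day 3 (-3.75 ± 0.13, adjusted p = 2.42e-05). Day 0 values of the 3 cultures lay close together in both genes, and hairpin B did not stand apart. S100a4, a calcium-binding protein of fibroblasts, read 29.1, 34.3 and 26.5 FPKM at day 0 and was listed at 0 in all day 3 libraries, so no fold is given. Col1a1 and Col1a2, the chains of type I collagen, fell (-3.08 and -3.34). Dcn and Lum, a further pair of fibroblast proteoglycans, did not exceed 0.925 and 0.214 FPKM in any of the 6 libraries.

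These genes are known from fibroblasts, and the series holds a survey of other libraries in which their level in embryonic fibroblasts can be read. Fibroblast enrichment was defined as at least 5 TPM (transcript levels scaled to length and library size) in its 1 fibroblast library and at least 5 times the highest of its 4 mouse embryonic stem cell libraries. Bgn read 3386 TPM in fibroblasts and at most 141 TPM in a stem cell library, Lox 1187 and 38.8 TPM, and Col1a1 8103 and 87.2 TPM. Of the 419 fibroblast-enriched loci tested, 183 fell (43.7%) and 61 rose (14.6%), against 13.4% and 16.4% of the 12157 other loci with survey values. They made up 98 of the 495 fallers of 2-fold or more (19.8%). Their summed level went from 3773, 4052 and 4916 FPKM at day 0 to 3245, 3096 and 3351 FPKM at day 3. With all fibroblast-enriched loci left out, 2044 loci were higher and 1669 lower (303 and 397 by 2-fold or more). The labels name feeders in 1 of their 2 protocols, and what part carried-over feeder RNA had in these falls was not tested.

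**Figure D4:**
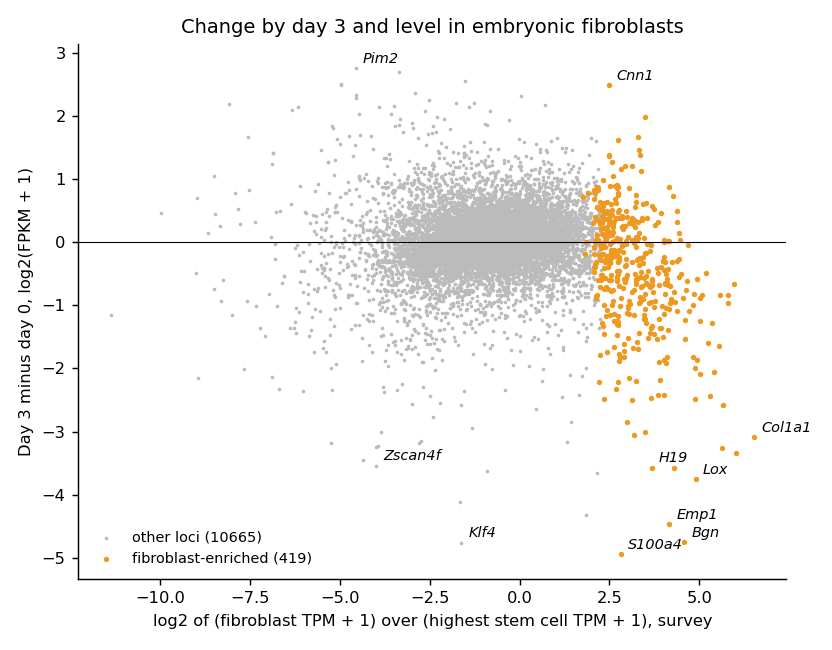
Change from day 0 to day 3 on the log2(FPKM + 1) scale (y axis) against the log2 ratio of the level in embryonic fibroblasts to the highest level in 4 stem cell libraries of the survey (x axis, TPM + 1), for loci of at least 5 TPM in either. The 419 fibroblast-enriched loci are orange; Bgn, Lox and Col1a1 lie at the lower right, while Klf4 and Zscan4f fell without enrichment and Cnn1 rose with it.

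The genes of epithelial to mesenchymal transition gave mostly falls. In that list 11 of 21 fell and 1 rose (13 and 2 of 20 without hairpin B), and 10 of the 11 are fibroblast-enriched. The exception was Zeb1, a repressor of E-cadherin, which read 7.92, 10.7 and 7.64 FPKM at day 0 and 0.561, 1.45 and 0.668 FPKM at day 3 (-2.38 ± 0.13, adjusted p = 9.28e-05). Vim (vimentin) and Fn1 (fibronectin), both fibroblast-enriched, fell to 63.7, 46.5 and 56.6 and 86.9, 80.9 and 99.6 FPKM and so were still present at day 3 (-1.52 and -1.13). Cdh2 (N-cadherin) was the riser (2.99, 3.23 and 3.96 FPKM at day 0 and 6.08, 5.67 and 5.71 FPKM at day 3, 0.64 ± 0.13, adjusted p = 0.0121), and Snai1 and Twist1 did not pass (-0.24 and 0.33).

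Some interferon-stimulated genes fell. Of 32 listed, 29 were tested, and of these 15 were lower and 2 higher, with a median of -0.80, and none of the 29 is fibroblast-enriched by the survey. Members near 0 at day 3, such as Ifit3, Ifi44, Irf7 and Usp18, could pass the filter only through day 0, so these counts are no support for a fall of the list. Isg15, a ubiquitin-like protein (chromosome 4, 155573532 to 155574927), read 8.86, 9.16 and 16.8 FPKM at day 0 and 0.849, 2.11 and 1.34 FPKM at day 3 (-2.35 ± 0.22, adjusted p = 0.000629). Ifit3 read 2.42, 3.10 and 0.848 FPKM at day 0 and 0.0436, 0.0233 and 0.0434 FPKM at day 3 (-1.51 ± 0.23, adjusted p = 0.00367), where all day 3 values are under the floor of 3 reads on 1 kb. The transcription factors of the response fell as well, among them Irf9 (-1.61) and Irf7 (-1.62). The membrane proteins Ifitm1, Ifitm2 and Ifitm3 fell by less than 2-fold (-0.88, -0.80 and -0.95).

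The chemokine Cxcl10 went the other way (1.03, 1.63 and 6.81 FPKM at day 0 and 10.8, 6.89 and 15.9 FPKM at day 3, 1.75 ± 0.25, adjusted p = 0.00291), as did the histocompatibility gene H2-K1 (0.33). The interferon-stimulated response element was in 6 of the 12 windows available for the 15 genes that fell (Ifit1, Ifit3, Isg15, Oas1a, Ifitm2 and Ifitm3) and in 3.99% of all windows, and it was also in the window of Cxcl10. Windows of interferon-stimulated genes that did not pass were not compared. Without hairpin B, 15 of 29 were lower and 5 higher.

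A few primitive streak genes rose. Of 26 listed, 14 passed the filter on low values, and 8 of these rose and 1 fell. A gene absent at day 0 could pass only through its day 3 level, so these counts are no support for a rise of the list. Of the 12 that passed without hairpin B, 8 were higher and 1 lower, and of the 12 without the scrambled culture 5 and 2. T (Brachyury), the founding factor of the streak (chromosome 17, 8627287 to 8635361), read 0.697, 0.435 and 2.33 FPKM at day 0 and 7.09, 3.13 and 7.99 FPKM at day 3 (1.74 ± 0.19, adjusted p = 0.000979). Eomes, a T-box factor of the early streak, read 2.73, 2.35 and 3.22 FPKM at day 0 and 10.4, 5.74 and 9.96 FPKM at day 3 (1.33 ± 0.15, adjusted p = 0.00116). The hairpin A day 3 values were the lowest for both. Mixl1 and Foxa2 rose to between 0.860 and 2.31 FPKM, and Mesp1, Evx1 and Tbx6 stayed under 1 FPKM in all 6 libraries, with highest values of 0.382, 0.262 and 0.994 FPKM. Pdgfra, a receptor of later mesoderm and of fibroblasts, fell (1.58, 1.92 and 1.06 FPKM at day 0 and 0.172, 0.197 and 0.147 FPKM at day 3), and its 3 day 3 values are marked as low data.

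The lists of other lineages were tested only in part, since many of their members were too low, and a member absent on 1 of the days could pass the filter only through the other. Of 25 neural genes listed 12 were tested, and of these 9 fell and 2 rose, both with and without hairpin B. The fallers include the factors Sox21 (-2.44), Pax6 (-0.98) and Sox1 (-0.62). Nes (nestin), an intermediate filament also known from the epiblast, was 1 of the 2 risers (5.91, 6.01 and 10.3 FPKM at day 0 and 42.3, 28.1 and 53.2 FPKM at day 3, 2.32 ± 0.14, adjusted p = 0.000131), and Zic2 was the other.

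Of 23 heart muscle genes listed 8 were tested, with 2 higher and 3 lower (4 and 4 without hairpin B). Actc1, cardiac alpha actin, read 0.597, 0.380 and 1.25 FPKM at day 0 and 8.84, 3.22 and 7.88 FPKM at day 3 (2.07 ± 0.20, adjusted p = 0.000685), and Myl3 rose below 2 FPKM. Of 21 blood and endothelial genes 8 were tested, with 3 higher and 2 lower (3 and 1 without hairpin B). Etv2, the founding factor of blood and vessel lineages, read 1.24, 1.90 and 1.57 FPKM at day 0 and 7.50, 7.80 and 10.7 FPKM at day 3 (1.91 ± 0.15, adjusted p = 0.000354), while its target Kdr did not exceed 0.302 FPKM.

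Among extraembryonic endoderm genes 3 of 19 tested rose and 6 fell (4 and 8 without hairpin B). Gata6, Sox17 and Sox7, markers of that lineage, did not exceed 0.704, 0.240 and 0.307 FPKM. Other members were expressed. The 32 members found summed to between 578 and 787 FPKM at day 0 and between 642 and 749 FPKM at day 3, and 20 of them reached 1 FPKM in some library. Of 19 trophoblast genes listed 10 were tested, with 2 higher and 4 lower (3 and 4 without hairpin B). The list summed to between 128 and 181 FPKM at day 0 and between 155 and 175 FPKM at day 3, and 11 of its members passed 1 FPKM in some library. Peg10, an imprinted gene, made up most of that sum at day 3 (54.3, 69.7 and 87.5 FPKM at day 0 and 100.5, 119 and 127 FPKM at day 3). Of the defining trophoblast markers, Cdx2, Gata3 and Hand1 stayed under 0.5 FPKM and Elf5 was listed at 0 in all 6 libraries, while Krt7 read 1.74, 0.798 and 2.37 FPKM at day 0 and 2.38, 1.03 and 2.51 FPKM at day 3.

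Imprinted genes, expressed from 1 parental copy, rose more often than they fell. Of 34 tested, 13 rose and 5 fell, beside 16.3% higher and 14.5% lower over all loci tested. The share that fell was thus near that over all loci. The counts were 14 and 7 of 33 without hairpin B, and 8 and 3 both without hairpin A and without the scrambled culture. The neighbours H19 and Igf2 on chromosome 7 fell, H19 from 13.6, 15.5 and 15.4 to 0.259, 0.450 and 0.291 FPKM (-3.57 ± 0.13, adjusted p = 2.42e-05) and Igf2 from 12.4, 13.8 and 17.4 to 2.76, 3.47 and 3.52 FPKM (-1.86 ± 0.12, adjusted p = 0.000190). Both are fibroblast-enriched, with 1012 and 1311 TPM in fibroblasts against at most 78.5 and 42.2 TPM in stem cells. The noncoding RNAs of the Dlk1 domain on chromosome 12 rose together, with Meg3 at 82.9, 78.3 and 169 FPKM at day 0 and 172, 129 and 202 FPKM at day 3 (0.67 ± 0.15, adjusted p = 0.0144), Rian at 116, 86.8 and 123 FPKM at day 0 and 184, 162 and 198 FPKM at day 3 (0.75 ± 0.09, adjusted p = 0.00167) and Mirg at 10.5, 6.92 and 17.7 FPKM at day 0 and 25.4, 21.9 and 28.4 FPKM at day 3 (1.13 ± 0.17, adjusted p = 0.00350). The hairpin B day 0 value of Meg3 lay within the range of the day 3 values. In the Prader-Willi domain, Snrpn went from 84.8, 84.0 and 76.8 to 169, 179.8 and 172 FPKM (1.08 ± 0.09, adjusted p = 0.000405) and Magel2 rose from about 1 FPKM (1.35). Phlda2 and Cdkn1c, which restrain placental and fetal growth, rose (0.49 and 0.49).

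Of 26 noncoding RNAs tested, 9 rose and 6 fell, beside 16.3% higher and 14.5% lower over all loci tested. Leaving out hairpin B gave 13 higher and 7 lower, and leaving out either other culture gave 6 higher and 3 lower of 25. Besides those of the Dlk1 domain, the risers were Ftx (listed as B230206F22Rik; 2.22, 1.57 and 1.86 FPKM at day 0 and 7.38, 6.53 and 8.15 FPKM at day 3, 1.54 ± 0.13, adjusted p = 0.000437), a locus of the X-inactivation centre, and Miat (1.40, with 1 value marked as low data), Malat1 (0.62), Nespas (0.67), Snhg11 (0.43) and Firre (listed as 6720401G13Rik; 0.39). Nespas is marked as a failed estimate in all 6 libraries. Snhg1, a host of small nucleolar RNAs, fell from 322, 288 and 295 to 158, 167 and 163 FPKM (-0.88 ± 0.09, adjusted p = 0.000851), Xist fell at levels near 1 FPKM (1.59, 1.31 and 2.21 FPKM at day 0 and 0.828, 0.473 and 0.747 FPKM at day 3), and Pvt1 (-0.52), Tug1 (-0.36), Snhg6 (-0.31) and H19 (above) were the other fallers. The sources used here do not say whether strand was used in assigning reads, so Xist and its antisense partner Tsix cannot be separated.

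Counts for the core growth machinery depended on whether the hairpin B culture was used. Of 44 replication and mitosis genes 3 rose and 4 fell, of 43 respiratory chain genes 1 each way, and of 47 ribosomal protein genes 3 rose and none fell. Without hairpin B, replication and mitosis genes had 8 higher and 15 lower, respiratory chain genes 6 higher and 10 lower, and ribosomal protein genes 25 higher and 3 lower, beside 27.1% higher and 23.2% lower over all loci in that fit. Without hairpin A or without the scrambled culture, each of the 3 lists had at most 1 gene called in each direction. Ccnd2 (cyclin D2) fell (16.1, 14.7 and 16.2 FPKM at day 0 and 7.58, 5.04 and 5.14 FPKM at day 3, -1.29 ± 0.14, adjusted p = 0.000947) and Ccnd1 rose (0.39).

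Of 36 glycolysis and hypoxia genes 10 fell and 4 rose, beside 14.5% lower and 16.3% higher over all loci tested. The cultures differed in direction, with list medians of -0.32 (scrambled), -0.51 (hairpin A) and 0.24 (hairpin B). Slc2a3 (Glut3), the main glucose transporter of stem cells, fell from 626, 602 and 546 to 302, 259 and 321 FPKM (-1.01 ± 0.11, adjusted p = 0.000913), and the lactate exporter Slc16a3 (Mct4) rose from 56.8, 46.5 and 38.6 to 120.0, 105.2 and 112 FPKM (1.25 ± 0.11, adjusted p = 0.000568). Without hairpin B, 21 of 35 were lower and 7 higher, and without hairpin A 6 of 36 were lower and 4 higher. Vegfa and Pfkp fell (-1.43 and -1.64).

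Of 32 genes of amino acid supply and endoplasmic reticulum stress, 13 fell and 2 rose. The counts were 16 lower and 3 higher without hairpin B, and 7 lower and none higher without hairpin A. Asns (asparagine synthetase), a target of Atf4, read 205, 159.6 and 132 FPKM at day 0 and 74.4, 51.3 and 76.4 FPKM at day 3 (-1.28 ± 0.16, adjusted p = 0.00171). Psat1 and Mthfd2, of serine and folate metabolism, fell too (-0.78 and -0.74), as did Atf4 itself (-0.49). Nupr1, a stress-induced chromatin protein, fell most (28.1, 22.1 and 19.4 FPKM at day 0 and 2.96, 4.54 and 2.76 FPKM at day 3, -2.46 ± 0.17, adjusted p = 0.000201).

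Of 34 genes of sterol and fatty acid synthesis 6 rose and 2 fell, with Fasn (fatty acid synthase) at 56.7, 67.1 and 67.4 FPKM at day 0 and 118, 122 and 133 FPKM at day 3 (0.96 ± 0.09, adjusted p = 0.000677) and the cholesterol exporter Abca1 falling (-1.71). Over all loci tested 16.3% were higher and 14.5% lower, and those shares moved with the culture left out as well. Leaving out hairpin B gave 10 sterol and fatty acid genes higher and 7 lower and moved the median from 0.13 to 0.04. Leaving out hairpin A gave 4 higher and 1 lower, and leaving out the scrambled culture 6 and 1. Among 25 p53 targets 7 fell and 1 rose, against 11 lower and 8 higher without hairpin B, 6 and 0 of 24 without hairpin A and 5 and 0 of 24 without the scrambled culture. The p53 inhibitor Mdm2 (-0.76) and the cell cycle inhibitor Cdkn1a (-0.81) were among the fallers.

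Of 31 polycomb genes 5 rose and 7 fell, beside 16.3% higher and 14.5% lower over all loci tested. These counts moved with the cultures used, as did those over all loci. They were 10 higher and 9 lower without hairpin B, 4 and 3 without hairpin A and 4 and 4 without the scrambled culture. The complex 2 core members Eed and Suz12 fell (-0.65 and -0.61), and the catalytic subunit Ezh2 did not pass (-0.11). Mtf2, an accessory subunit of complex 2, read 223, 168 and 132 FPKM at day 0 and 104.9, 91.2 and 90.0 FPKM at day 3 (-0.84 ± 0.12, adjusted p = 0.00275). In complex 1, the ring finger gene Rnf2 (Ring1b) and Rybp fell (-0.49 and -0.53), while Cbx2, Cbx6, Yaf2 and Kdm2b rose (0.71, 0.97, 0.78 and 0.61).

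Whether the first 3 days differed between hairpin and scrambled cultures was asked with an interaction term. It has 1 residual degree of freedom and a single scrambled culture that is assumed to vary like the hairpin cultures. Of 12852 loci 7 passed (0.0545%), 2 with a higher and 5 with a lower change in the hairpin cultures. An unadjusted p under 0.05 was found for 340 loci. That is a smaller share of the loci tested than the 0.05 such a threshold passes where no locus differs. Igfbp7, a secreted protein that binds insulin-like growth factors, read 10.2, 15.1 and 11.5 FPKM at day 0 and 13.6, 0.917 and 0.808 FPKM at day 3, a difference of -3.31 ± 0.33 (SE) on the log2 scale (limma, adjusted p = 0.00276). It was lower at day 3 in both hairpin cultures and higher in the scrambled culture. Moap1, a modulator of apoptosis, went the other way, with 8.36, 2.09 and 2.03 FPKM at day 0 and 6.72, 16.9 and 16.0 FPKM at day 3 (2.79 ± 0.32, adjusted p = 0.00782). Fuz, a planar polarity protein of cilia, read 3.00, 5.90 and 13.4 and 11.2, 2.42 and 4.20 FPKM (-2.85 ± 0.35, adjusted p = 0.00817).

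Days 6 and 9 took no part in the fit of the 6 libraries, but they entered the fits with all 12 libraries. Members were chosen with earlier results of these data known. At these later days, levels of the same genes went on in different ways in the 3 cultures. Klf4 read 2.75, 4.08 and 25.4 FPKM at day 6 and 3.34, 3.47 and 36.0 FPKM at day 9. Esrrb read 14.2, 15.7 and 112 and then 11.7, 12.0 and 136 FPKM. Nanog read 59.4, 76.4 and 205 and 44.3, 45.4 and 256 FPKM. All 3 genes were lower at day 9 than at day 3 in scrambled and hairpin A cells. In hairpin B all 3 were higher at day 9 than at day 3, with Nanog above, and Klf4 and Esrrb below, their day 0 levels. Pou5f1 was lower at day 9 in scrambled and hairpin A cells (98.8, 102 and 602 FPKM).

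Formative genes differed in their later course. Pou3f1 read 13.6, 17.8 and 30.1 FPKM at day 6 and Pim2 221, 250.0 and 148 FPKM, below their day 3 levels in each culture. Otx2 read 150.3, 155 and 63.8 FPKM, higher than at day 3 in scrambled and hairpin A cells. T read 25.4, 51.1 and 6.01 FPKM at day 6, above its day 3 level in scrambled and hairpin A cells and below it in hairpin B cells. Zscan4f stayed low at day 6 (0.975, 1.08 and 0.532 FPKM) and at day 9 read 1.08, 1.79 and 24.5 FPKM, near its day 0 level in hairpin B alone. Bgn read 1.65, 2.30 and 2.74 and 7.25, 5.92 and 6.60 FPKM, below its day 0 level in each culture.

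**Figure D5:**
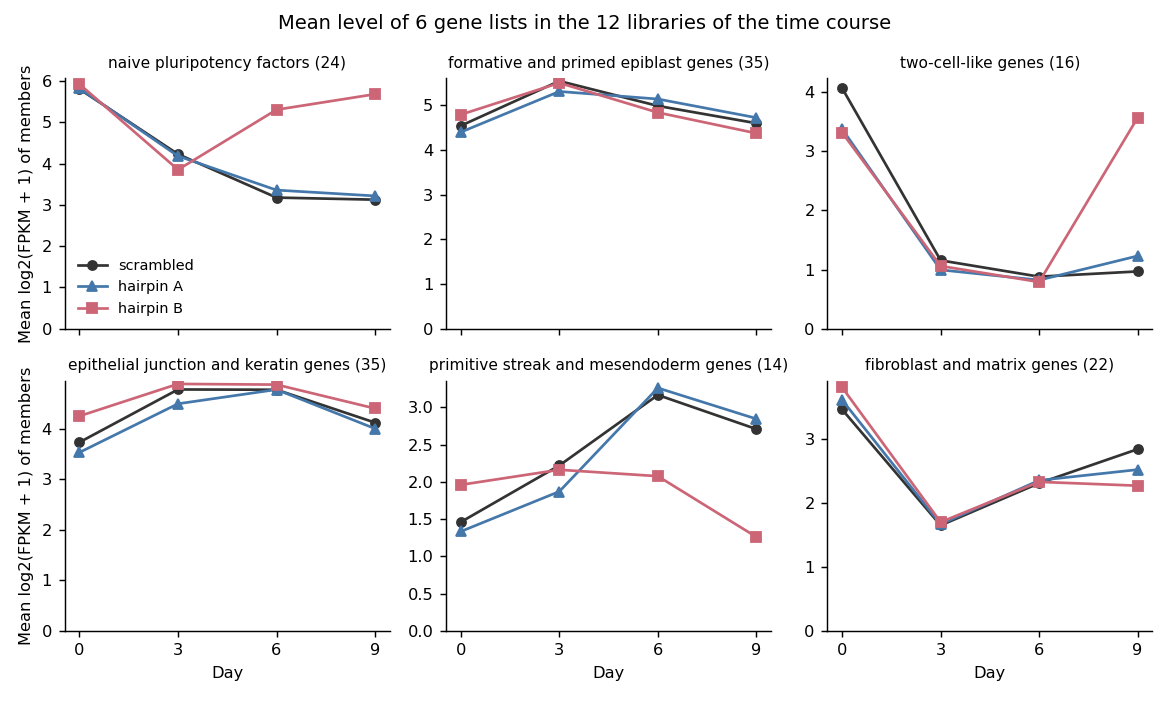
Mean log2(FPKM + 1) of the tested members of 6 gene lists (number in brackets) at days 0, 3, 6 and 9, with 1 line per culture and 1 library per point. The 3 cultures move together from day 0 to day 3 in all 6 lists, and hairpin B parts from the others by day 6 in the naive and streak lists and by day 9 in the 2-cell-like list.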

How the data were processed

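mRNA sequencing libraries of days 0 and 3 of the 3 cultures were compared (6 of the 20 samples). FPKM values per locus were deposited by the authors, who used TopHat 1.14, Bowtie 0.12.7 and Cufflinks 1.3.0 on mm9, per the submitters' processing notes, and per the file headers each value has a status (ok for 130344 of 132612 values, low data for 1957, failed for 311). The survey's TPM values were deposited by the authors with TopHat 1.3 and with RSEM (build mm9), as the submitters' processing notes have it. No counts come with the FPKM, so depth was estimated from the steps between low values.

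Of 22102 loci, 642 under 300 bp were left out, as were those without at least 1 FPKM in at least 2 of the 6 libraries. The remaining 12852 were tested with limma 3.58.1 in R 4.3.3 on log2(FPKM + 1), which understates the change of low genes, with day and culture as terms, a mean trend and Benjamini-Hochberg adjustment (threshold 0.05, 2 residual degrees of freedom). An interaction fit compared the hairpin cultures with the scrambled one. The block pairs libraries that carry the same hairpin in the labels, and the deviations of such libraries from their day means correlated at 0.125 (scrambled), 0.41 (hairpin A) and 0.273 (hairpin B). The model was also run on simulated data with the same spread in every library. That run cannot show how the model behaves with an outlying library such as hairpin B at day 0.

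Named genes were the 12 largest rises and falls of loci above a mean of 2 FPKM, members of 35 gene lists (the largest, the smallest, those against the list and founding members), the called noncoding RNAs and 5 interaction calls. Members and lists were chosen with earlier results of these data known. Some genes are in more than 1 list. The definition of fibroblast enrichment was added after seeing the data. Alternatives covered the pseudocount, filters, short loci, block, scaling, samples in the fit, trend, status and each culture left out. Some items are not reported here.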

Additional observations from a re-analysis of the deposited data

Results flagged for a closer look

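For 7 loci the change from day 0 to day 3 differed between the hairpin cultures and the scrambled culture by the interaction term of limma (1 residual degree of freedom, adjusted p under 0.05), the hairpin change minus the scrambled change being given on the log2 scale. Among them, Igfbp7 stood at -3.31 ± 0.33 (SE), Moap1 at 2.79 ± 0.32 and Fuz at -2.85 ± 0.35. The uncharacterised 1110028C15Rik, at 3.26, 10.8 and 9.59 FPKM on day 0 and 11.6, 5.68 and 3.61 FPKM on day 3, stood at -2.58 ± 0.33 (adjusted p = 0.0134). Acsm3, an acyl-CoA synthetase, read 0.410, 5.88 and 0.117 FPKM on day 0 and 5.93, 3.44 and 0.0481 FPKM on day 3 and stood at -2.66 ± 0.38 (adjusted p = 0.0264). Its 2 hairpin cultures differ more from one another at day 0 than the scrambled culture does from hairpin B.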

How the results depend on the processing

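Leaving out each culture in turn gave 987 to 3431 loci higher and 1044 to 2938 lower, with the most calls without hairpin B, and 290 to 429 higher and 485 to 510 lower by 2-fold or more. Without a filter on low values 1353 loci were higher, and with all 12 libraries in the fit 881 were higher, 710 lower and 317 lower by 2-fold or more. A pseudocount of 0.1 gave 620 loci higher and 775 lower by 2-fold or more. Without the replicate block (day only), 1711 loci were higher and 1468 lower. The 7 interaction calls became 11 with a pseudocount of 0.1, 0 without a filter on low values, 16 with short loci included, 22 after quantile normalization and 3 without loci of doubtful status. The cause of these shifts was not tested. Of the 176 genes printed with a log2 change, none reversed under any setting. The calls lost numbered 70 with all 12 libraries in the fit, 31 without a filter on low values, 27 without the replicate block, 22 without the scrambled culture and 23 without hairpin A, while 6 genes gained a call without hairpin B. Among the 35 list medians, that of the DNA methylation machinery ranged from -0.0901 to 0.0461 with a culture left out, turning positive without hairpin B. Without fibroblast-enriched loci the median was 0.0860 for extraembryonic endoderm genes and 0.0351 for the 3 fibroblast and matrix genes left.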
